A study of Mus musculus with 8 samples.

Results

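Gene expression in dorsal skin of JunB cKO mice was compared with that of wild type mice 4 days after hair plucking. The table for this condition holds 47990 rows. Of these, 609 rows carry several gene symbols and 676 carry none. The remaining rows give 46036 symbols, and for the 355 members with more than 1 row, the row with the largest summed value was taken. Genes with an FPKM (fragments per kilobase of transcript, scaled to the mapped reads of a library) of at least 10 in either genotype were kept, which left 8553 genes, called members here. Just inside this limit lay Micall1, at 10.002 FPKM in wild type against 9.10 in JunB cKO, and just outside it Penk, at 2.60 in wild type against 9.995 in JunB cKO. For each member the log2 ratio was taken as log2((JunB cKO + 1)/(wild type + 1)), which understates differences of genes with a low FPKM.

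Both groups were C57BL/6 mice, labelled JunB +/+ (wild type) and JunB -/- (JunB cKO). According to the methods of the study, JunB cKO mice carry floxed JunB alleles and a Cre recombinase driven by the K14 promoter, so that the deletion is limited to keratin 14 expressing epithelial cells and their progeny, and dermal, immune and muscle cells keep the gene. Hairs of the back were removed with an epilator at postnatal day 54, and skin was taken at postnatal day 58. RNA of 3 samples per genotype was pooled before library preparation, so that each genotype is represented by 1 library. No spread between mice can be given, no test was possible, and every difference below is a difference between these pooled libraries. The series also holds a pair of unperturbed libraries, labelled keratinocyte, and skin 30 days after wounding. For the wounds, the labels list 2 libraries per genotype, but the table gives 1 value per genotype. The unperturbed and wound values were used for comparison.

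Plucking removes the hair shaft and drives the resting follicle into a new growth phase. Cells of the hair germ and matrix then divide, the inner root sheath forms around the future hair, and the shaft keratins and keratin-associated proteins follow. JunB is a subunit of AP-1, a dimer of Jun and Fos type transcription factors that acts in keratinocyte differentiation, in stress responses and in the control of cytokine genes.

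The tissue label of the plucked libraries reads keratinocyte, whereas their title names a skin biopsy, and the markers were those of a biopsy. The 6 fibroblast markers summed to 5109 FPKM in wild type against 1856 in JunB cKO, compared with 13.7 and 12.5 in the unperturbed keratinocytes. Skeletal muscle, adipocyte and macrophage markers summed to 202, 193 and 84.2 FPKM in wild type and to 26.9, 65.4 and 25.7 in JunB cKO, respectively. Thus the summed markers of fibroblasts, muscle, fat and macrophages were lower in the JunB cKO library, although single markers such as Adipoq were not. The 6 basal keratinocyte markers, which include Krt5, Krt14 and Krt15, summed to 5024 FPKM in wild type against 4643 in JunB cKO, and the 6 markers of differentiated keratinocytes to 13307 and 17553. Neutrophil markers were near 0 in both, with sums of 6.08 and 3.18 FPKM. In bulk tissue, fewer cells of a type and less RNA per cell cannot be told apart. The table gives no read numbers, but low values of genes with 1 annotated transcript come in steps of whole reads. From these steps, 1 FPKM over 1 kb of transcript (less 200 bases) stood for about 16.3 reads in wild type and 12.9 in JunB cKO. Of 1649 values of up to 60 reads in wild type, 84.4% lay within 0.05 of a whole number, and of 2076 in JunB cKO, 86.0%.

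Most members were at similar levels in both libraries. Their log2 ratios had a median of 0.01, and 4715 of the 8553 members (55.1%) lay within 1.5-fold. At a limit of 2-fold, 1118 members (13.1%) were higher and 1051 (12.3%) were lower in JunB cKO. These shares are the background for all counts below. Members with at least 10 FPKM in both genotypes numbered 6244, and among these 344 (5.51%) were higher and 410 (6.57%) lower. Of the members that reached 10 FPKM in wild type alone, 641 of 1080 were at least 2-fold lower in JunB cKO, and of those that reached it in JunB cKO alone, 774 of 1229 were higher, a direction that the limit itself sets. In wild type, 207 members were listed at 0, and in JunB cKO 123. Since genes used by every cell are among them, a listed 0 may be a failed estimate, and no fold is given for such genes. The share of higher members was 15.2% at 10 to 30 FPKM, 10.4% at 30 to 100 FPKM and 12.01% above, and that of lower members 13.3%, 11.5% and 10.4%. Short transcripts had the widest ratios, as 129 of 266 members whose longest transcript is under 300 bases were higher and 72 lower.

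**Figure D1:**
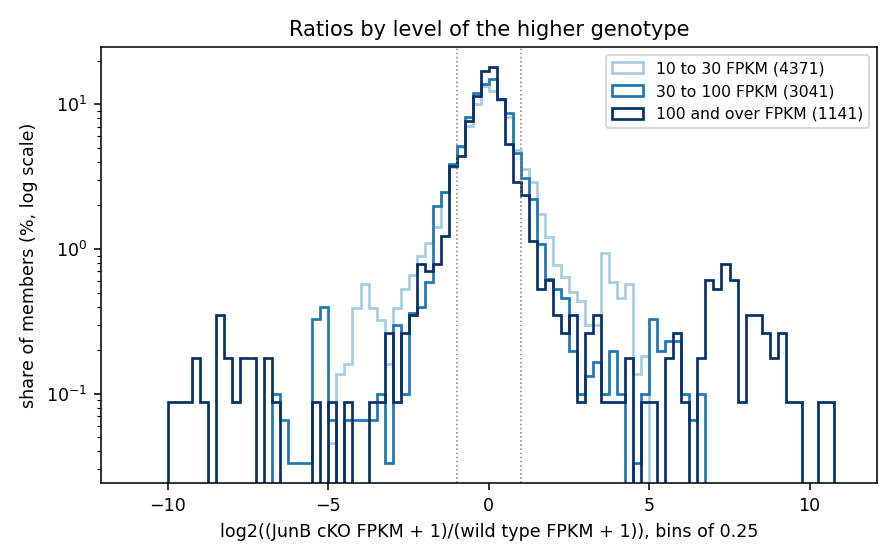
Distribution of the log2 ratio of JunB cKO to wild type for the 4371, 3041 and 1141 members whose higher genotype was at 10 to 30, at 30 to 100 and at 100 or more FPKM. The x axis is the log2 ratio in bins of 0.25, the y axis the share of members in percent on a log scale, and dotted lines mark 2-fold. Most members lie between the dotted lines in all 3 tiers, and 15.2%, 10.4% and 12.01% lie beyond the upper one.

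Genes that every cell uses give a measure of how often 2-fold differences arose outside specific programmes. Of 77 cytosolic ribosomal protein genes, 0 were higher and 1 was lower, with a median log2 ratio of 0.00. The exception was Rpl5, at 3433 FPKM in wild type against 805 in JunB cKO. Of 110 subunits of the respiratory chain and the proteasome, however, 9 (8.18%) were higher and 8 (7.27%) lower. Among them were Ndufa7 at 93.5 and 11.3 FPKM and Cox7b at 104 and 364, both of the respiratory chain. Differences of this size in a single gene were therefore found also where no common direction was present. Lists of genes, which share some members with each other, are described below by their counts and medians.

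Junb itself, on chromosome 8 of GRCm38 from 84974484 to 84978718 (ENSMUSG00000052837.6), was at 40.8 FPKM in wild type against 11.7 in JunB cKO. Transcript thus remained in the JunB cKO library. That library also contains dermal cells, in which the K14 promoter is not active, and their part in the remaining transcript was not tested. Junb transcript also remained in the unperturbed JunB cKO keratinocytes, at 31.4 FPKM against 268 in wild type. In that pair, the fibroblast markers summed to 12.5 FPKM in JunB cKO and 13.7 in wild type. Among the 12 Jun and Fos type genes, 5 were members. Jund, a related Jun subunit, was at 30.3 FPKM in wild type against 13.0 in JunB cKO (log2 ratio -1.16), with about 724 and 245 reads. Jun was at 27.6 and 25.7, and Fosl2, a Fos type partner, at 31.0 and 42.6, all within 2-fold. Atf3, a stress-induced factor that can pair with Jun proteins, was at 4.25 in wild type against 33.2 in JunB cKO (log2 ratio 2.70). Of 18 immediate early genes, 3 were higher and 0 lower, against a background of 13.1% higher and 12.3% lower. These were Socs3, an inhibitor of cytokine signaling, at 2.93 and 35.4 FPKM, Egr3 at 4.19 and 19.2, and Plaur, the urokinase receptor, at 3.56 and 16.3. All 3 reached 10 FPKM in JunB cKO alone, so that the limit set their direction. The 14 members with at least 10 FPKM in both genotypes had a median of 0.03.

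The motif of AP-1 was searched as the letters TGANTCA, where N stands for any base, which reads the same on both strands. Promoter windows of 300 bases, from 250 before to 50 after an annotated start, were taken from RefSeq (GRCm38.p6) for 6252 of the 8553 members. The motif was in 64 of 701 windows of higher members (9.13%), in 40 of 701 of lower members (5.71%) and in 326 of 4850 of the members within 2-fold (6.72%), counting a gene with several windows once. Over all 27025 genes with a window, the share was 8.97%. The promoters of 5 genes described below are shown. Their values were known when they were chosen, so as to cover both directions, with the motif in capitals. It begins at -87 from the start site in Tchhl1, at -138 in Krtap6-5, at -4 in Notch4, at -46 in Mmp3 and, for the first of a pair, at -146 in Sprr1a. A match is a description of the letters and does not by itself show a bound site. For Notch4, the paper reports JunB binding in the promoter by chromatin immunoprecipitation. The cells were wild type epidermal progenitors taken after hair plucking. A primer pair of that assay encloses the Notch4 motif printed here. The binding values at this motif were not examined.
Tchhl1 (chr3:93468504-93468803, plus strand, inner root sheath, 15.9 FPKM in wild type against 60.5 in JunB cKO): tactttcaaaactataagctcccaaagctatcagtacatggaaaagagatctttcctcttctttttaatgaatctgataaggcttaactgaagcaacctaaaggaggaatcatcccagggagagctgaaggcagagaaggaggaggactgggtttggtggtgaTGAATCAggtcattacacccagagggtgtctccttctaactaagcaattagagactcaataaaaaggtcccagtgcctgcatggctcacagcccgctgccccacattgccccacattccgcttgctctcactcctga
Krtap6-5 (chr16:89047850-89048149, minus strand, hair shaft, 8.76 and 38.5 FPKM): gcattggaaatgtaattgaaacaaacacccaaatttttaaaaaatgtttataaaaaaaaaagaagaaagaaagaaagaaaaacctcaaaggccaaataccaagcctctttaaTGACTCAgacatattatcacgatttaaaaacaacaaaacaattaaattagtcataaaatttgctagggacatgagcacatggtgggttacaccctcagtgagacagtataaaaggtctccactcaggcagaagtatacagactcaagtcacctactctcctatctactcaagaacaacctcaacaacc
Notch4 (chr17:34564045-34564344, plus strand, Notch receptor, 0.261 and 11.8 FPKM): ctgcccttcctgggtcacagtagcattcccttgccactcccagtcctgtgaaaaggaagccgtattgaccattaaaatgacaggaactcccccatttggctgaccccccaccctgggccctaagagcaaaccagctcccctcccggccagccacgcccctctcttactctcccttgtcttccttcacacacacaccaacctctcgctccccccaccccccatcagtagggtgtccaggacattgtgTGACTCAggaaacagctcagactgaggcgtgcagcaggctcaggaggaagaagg
Mmp3 (chr9:7445572-7445871, plus strand, matrix protease, 19.7 and 5.40 FPKM): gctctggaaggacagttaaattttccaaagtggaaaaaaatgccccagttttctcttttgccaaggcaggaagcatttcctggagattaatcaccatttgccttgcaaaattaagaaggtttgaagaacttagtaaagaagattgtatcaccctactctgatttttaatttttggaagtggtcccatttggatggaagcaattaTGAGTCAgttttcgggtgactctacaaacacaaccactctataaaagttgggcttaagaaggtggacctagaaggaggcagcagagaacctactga
Sprr1a (chr3:92485832-92486131, minus strand, cornified envelope, 258 and 113 FPKM): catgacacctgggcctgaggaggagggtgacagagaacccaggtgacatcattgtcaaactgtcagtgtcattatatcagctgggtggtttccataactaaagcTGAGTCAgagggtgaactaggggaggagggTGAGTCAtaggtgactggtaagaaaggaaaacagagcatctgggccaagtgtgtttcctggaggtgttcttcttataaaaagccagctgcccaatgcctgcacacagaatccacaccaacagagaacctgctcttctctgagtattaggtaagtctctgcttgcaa

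Genes of the hair shaft and its sheath were higher in JunB cKO as groups. Of the 57 keratin-associated protein genes, which encode the matrix proteins between the keratin filaments of the hair shaft, 24 were members, and all 24 were higher in JunB cKO, 22 of them at least 2-fold. Since 20 of the 24 passed the limit through JunB cKO alone, where 774 of 1229 of all such members (63.0%) were past 2-fold, this count and the median below are set in part by the limit. Their median log2 ratio was 3.25, and their summed FPKM over all 57 genes was 148 in wild type against 1034 in JunB cKO. The 4 with at least 10 FPKM in both genotypes had a median of 2.12. Krtap19-5, the highest of them, was at 18.0 FPKM in wild type against 163 in JunB cKO, and Krtap7-1 at 3.80 and 73.9. In reads, these were about 85 and 609 for Krtap19-5, and 26 and 400 for Krtap7-1. Of its members, 7, among them Krtap19-3, Krtap19-4 and Krtap4-6, were listed at 0 in wild type, and the median of the other 17 was 2.71. In JunB cKO, these 3 were at 41.6, 29.2 and 20.9 FPKM, or about 174, 39 and 193 reads. The family lies in arrays. The 17 members on chromosome 16, between 88818667 and 89571183, had a median of 3.39, and the 7 on chromosome 11, between 99555823 and 99851608, a median of 3.02. Because the genes within an array are alike in sequence, reads may be split between neighbours, and single values are less certain than the sum. The other 33 genes of the family were below 10 FPKM in both genotypes.

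The keratins and trichohyalins of the inner root sheath, the layer that moulds the growing hair, were also higher. Among 11 members, 9 were at least 2-fold higher, 0 were lower, and the median was 2.64. The 4 members with at least 10 FPKM in both genotypes had a median of 2.25. All others of the 11 reached 10 FPKM in JunB cKO alone. The count of 9 and the median of 2.64 are thus set in part by the limit. Summed over the 13 genes of the list that the table holds, including those below the limit, the FPKM was 596 in wild type against 1009 in JunB cKO. Most of the wild type sum came from Krt79, which is described below and went the other way. Krt25, on chromosome 11 from 99315516 to 99322951, was at 5.28 FPKM in wild type against 98.5 in JunB cKO, about 154 and 2268 reads. Without a pseudocount its log2 ratio was 4.22, with a 95% interval from 3.99 to 4.47 that covers counting error alone. Krt27 was at 9.13 and 94.6 FPKM, and Krt71 at 26.1 and 168. Tchh, the trichohyalin gene on chromosome 3, which hardens the sheath, was at 22.3 in wild type against 241 in JunB cKO, and its neighbour Tchhl1, whose promoter is shown above, at 15.9 and 60.5. In contrast, Krt79, a keratin of the upper follicle and of sebaceous ducts, was at 503 FPKM in wild type against 264 in JunB cKO (log2 ratio -0.93). Hair shaft keratins were at low levels. None of their 6 members reached 10 FPKM in both genotypes, so that the limit set each direction. Of these, Krt33a, Krt83, Krt34 and Krt81 were higher and Krt84 and Krt36 lower. Krt33a was listed at 0 in wild type but at 30.9 FPKM in JunB cKO, and Krt36 at 10.2 in wild type but at 0 in JunB cKO.

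**Figure D2:**
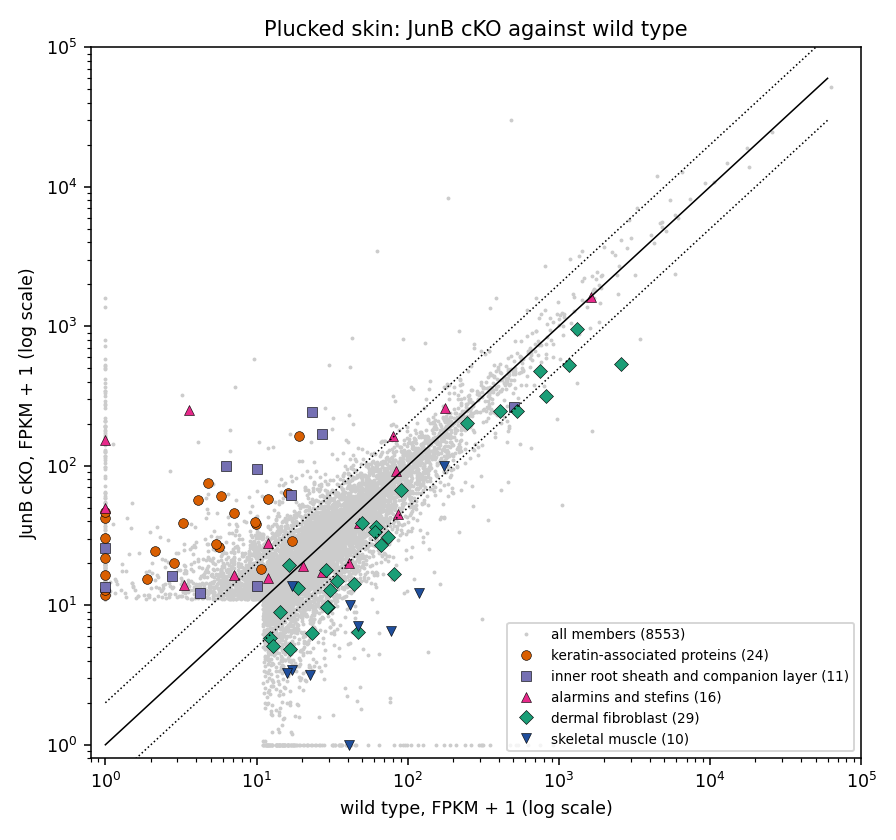
FPKM + 1 in wild type (x axis) and JunB cKO (y axis) for all 8553 members, both on log scales, with 5 gene lists marked. The solid line marks equal levels and the dotted lines 2-fold. Keratin-associated protein and inner root sheath genes lie above the lines at low wild type values, and dermal fibroblast and skeletal muscle genes below.

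The regulators of the follicle did not share this direction. Of 19 members in the list of follicle stem cell and outer root sheath genes, 2 were higher and 3 lower, with a median of -0.15. Lhx2, a transcription factor of the hair germ and bulge, was at 12.4 FPKM in wild type against 40.8 in JunB cKO, and Npnt, a bulge matrix protein, at 6.18 and 31.0. Tcf7l1, a repressor of Wnt targets in the bulge, was at 14.0 in wild type against 1.94 in JunB cKO. Krt15 (1530.5 and 1382 FPKM), Cd34 (84.9 and 65.3), Sox9 (35.8 and 33.4) and Lgr5 (12.9 and 11.5) were within 2-fold. Among 12 members that regulate the matrix or the growth phase, 1 was higher and 3 were lower. The higher one was Axin2, a target of Wnt signaling, at 6.51 and 24.9 FPKM. Of the lower ones, Fgf7, a dermal growth factor for epithelium, was at 15.3 and 3.33, and Crabp2, which binds retinoic acid, at 162 and 66.4. Npnt and Axin2 reached 10 FPKM in JunB cKO alone, and Tcf7l1 and Fgf7 in wild type alone, so that the limit set these directions. With 10 FPKM in both genotypes, the median was -0.16 for 15 stem cell and outer root sheath genes. It was 0.23 for 8 matrix and growth phase genes.

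Genes of DNA replication were higher in JunB cKO more often than lower. In this list, 7 of 21 members were at least 2-fold higher and 0 lower, with a median of 0.76, and 18 of 21 had a ratio above 0. The 16 members with at least 10 FPKM in both genotypes had a median of 0.74. Ccne2, a cyclin of S phase entry, was at 15.8 FPKM in wild type against 83.7 in JunB cKO, Rrm1, a subunit of ribonucleotide reductase, at 12.02 and 47.3, and Mcm2, of the replicative helicase, at 5.19 and 15.1. Pcna, the sliding clamp, was at 27.3 and 50.4, and Mcm6, in the other direction, at 41.0 and 34.1. In the cell division list, 25 of 30 members had a ratio above 0 and the median was 0.70, but 5 were at least 2-fold higher and 1 lower, a share of higher members near the background of 13.1%. The 13 members with at least 10 FPKM in both genotypes had a median of 0.33. Mki67 was at 35.0 in wild type against 61.0 in JunB cKO, Top2a at 34.9 and 57.7, and Ube2c, of the anaphase-promoting system, at 1.36 and 11.96. Cdk1, the mitotic kinase, went the other way, at 26.0 and 9.31 FPKM. Among 43 histone genes, 15 were higher and 2 lower (median 0.48, and 0.31 for the 29 with 10 FPKM in both). Hist1h4d was at 137 and 354 FPKM and Hist1h1d at 21.5 and 82.2. Histone genes are near-identical copies of each other, and most of their transcripts lack a poly(A) tail, which rRNA-depleted libraries retain. Among 19 cell cycle inhibitors and p53 targets, 3 were higher and 0 lower. Cdkn1a was at 15.3 and 42.1 FPKM, Mdm2, the negative regulator of p53, at 21.1 and 49.4, and Bbc3, which promotes apoptosis, was listed at 0 in wild type but at 11.8 in JunB cKO.

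In the basal layer, the adhesion genes differed more than the keratins. Of 16 basal keratinocyte and hemidesmosome members, 4 were at least 2-fold higher and 0 lower (median 0.51). Itga3, a laminin receptor, was at 18.1 FPKM in wild type against 45.6 in JunB cKO, Itgb4, of the hemidesmosome, at 27.8 and 58.7, and Col17a1 at 179 and 369. Krt5 was at 614 and 845, and its partner Krt14, whose promoter drives the Cre, at 2446 and 1709. Suprabasal differentiation genes were within 2-fold in all 19 members (median 0.19), with Krt10 at 2004 and 3685 FPKM and Krt1 at 805 and 1298. Among 33 cornified envelope members, 3 were higher and 3 lower (median 0.31). Higher were Crnn, listed at 0 in wild type but at 35.7 in JunB cKO, Cnfn at 3.61 and 41.3, and Sprr2a3 at 0.510 and 13.4. These 3 reached 10 FPKM in JunB cKO alone, so that the limit set their direction. The 30 members with at least 10 FPKM in both genotypes had a median of 0.28. Lower were Sprr4 at 654 and 134 FPKM, Sprr1a at 258 and 113, and Lce1e at 57.4 and 18.4. Sprr4 has a single transcript of under 300 bases. Filaggrin (Flg) was at 991 and 1487 FPKM and loricrin (Lor) at 139 and 203. Of 20 cornification enzymes and inhibitors, 2 were higher and 3 lower (median 0.03). Klk6 and Klk10, skin serine proteases, were at 268 and 50.7 and at 62.3 and 26.2 FPKM, and Cst6, an inhibitor of cathepsins, at 267 and 70.6, whereas Klk11 was at 22.7 and 64.7 and Casp14 at 34.9 and 79.7.

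The 4 keratins of wounded and stressed epidermis went different ways. Krt6a, on chromosome 15 from 101689910 to 101694307, was at 226 FPKM in wild type against 66.2 in JunB cKO (log2 ratio -1.76). Krt6b, its neighbour from 101676023 to 101680287, was at 7.90 and 59.2 (log2 ratio 2.76). As both genes are near-identical in their coding sequence, reads may be split between them, and the difference in Krt6a was the larger one in FPKM. In wounds, Krt6b was at 3.44 FPKM in wild type against 17.3 in JunB cKO, and Krt6a at 101 and 105. In unperturbed keratinocytes, Krt6b was at 1.95 and 9.65, and Krt6a at 19.7 and 23.2. Thus Krt6b was higher in JunB cKO in each comparison, and Krt6a was lower after plucking only. The part of read splitting was not tested. Krt16 was at 88.0 and 88.6 FPKM, and Krt17, which is also present in the outer root sheath, at 1012 and 581.

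Alarmins and stefins, secreted or cytosolic proteins of stressed epidermis and myeloid cells, were higher in 7 and lower in 1 of 16 members (median 0.47). This rests on members that passed the limit in JunB cKO, as the 11 with at least 10 FPKM in both genotypes had a median of -0.01, and the 14 not listed at 0 one of 0.26. S100a8, on chromosome 3 from 90668978 to 90670035, was listed at 0 in wild type but at 152 FPKM in JunB cKO, and its partner S100a9 was at 2.56 and 250. In unperturbed keratinocytes, S100a9 was at 2.88 in wild type against 11.2 in JunB cKO, and in wounds at 10.9 and 77.5. Both S100 proteins are abundant in neutrophils as well as in stressed keratinocytes. The defining neutrophil markers were low in both libraries, at 3.55 FPKM in wild type against 0.551 in JunB cKO for Csf3r, at 1.55 and 2.42 for Cxcr2, and at 0 in both for Retnlg. Lcn2, an iron-binding defence protein, was at 2.32 and 13.0 FPKM, and Il1f6 (IL-36 alpha) at 10.9 and 27.0. Stfa1, an inhibitor of cysteine proteases, was listed at 0 in wild type but at 49.0 in JunB cKO, whereas the related Stfa3 was at 175 and 258 and Stfa2 at 19.3 and 18.2. The most abundant gene of the list, the beta-defensin Defb6, was at 1630.1 and 1616 FPKM. Of 24 interferon-induced genes, 5 were higher and 1 lower (median 0.39, and 0.29 for the 13 with 10 FPKM in both). Isg15, a ubiquitin-like modifier, was at 2.98 and 27.4 FPKM and Ifit1 at 8.81 and 30.9, whereas Irf1 was at 30.6 and 7.77.

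Among 34 interleukins, TNF ligands and their receptors, 6 were higher and 7 lower (median 0.03). Il15, at 3.11 FPKM in wild type against 19.7 in JunB cKO, Il17rc, at 8.86 and 41.8, and Tnfrsf1a, at 39.2 and 148, were highest in ratio. Il1a was at 6.06 and 15.4, and Il1rn, the antagonist of the IL-1 receptor, at 81.9 and 55.1. Il4ra, at 24.6 and 9.32, and Il16, at 19.4 and 3.87, were lower. Il15, Il17rc and Il1a reached 10 FPKM in JunB cKO alone, and Il4ra and Il16 in wild type alone. The limit thus set these directions and part of the counts. The 22 members with at least 10 FPKM in both genotypes had a median of -0.11. Of 9 chemokines, 1 was higher (Ccl8, at 1.38 and 10.5 FPKM) and 2 were lower, among them Cxcl12, a product of dermal stroma, at 47.3 and 13.7. Ccl8 reached 10 FPKM in JunB cKO alone, so that the limit set its direction.

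**Figure D3:**
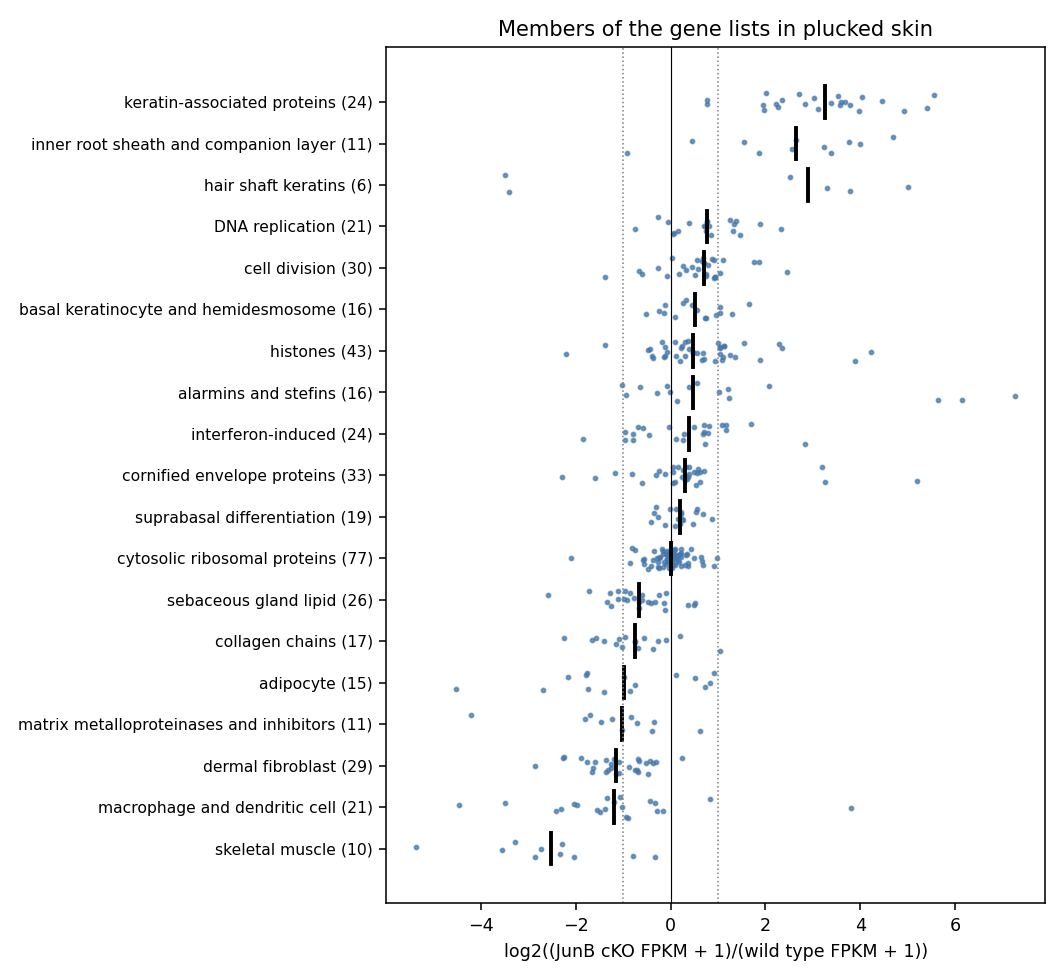
Log2 ratio of JunB cKO to wild type for the members of 19 gene lists, with the number of members in parentheses. Each dot is a gene, the vertical bar is the median of the list and dotted lines mark 2-fold. The medians run from 3.25 for keratin-associated proteins to -2.53 for skeletal muscle, and include members that reached 10 FPKM in a single genotype.

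Genes of the dermis and of the layers below it were lower in JunB cKO as groups. Of 29 dermal fibroblast members, 17 were at least 2-fold lower, against a background of 12.3%, and 0 were higher, with a median of -1.15. The 21 with at least 10 FPKM in both genotypes had a median of -0.87. Summed over the list, the FPKM was 8643 in wild type against 3883 in JunB cKO. Col3a1, a fibrillar collagen on chromosome 1 from 45311538 to 45349706, was at 2559 FPKM in wild type against 535 in JunB cKO, and Col1a1 at 1168 and 527. Sparc, which binds collagen, was at 819 and 318, Dpp4, a surface protein of dermal fibroblasts, at 46.0 and 5.45, and Pdgfrb, a receptor of mural cells and fibroblasts, at 15.6 and 3.88. Dcn (754 and 475 FPKM), Postn (1322 and 949) and Vim (247 and 200) were within 2-fold. Of 17 collagen chains, 7 were lower and 1 was higher (median -0.75). The higher one, Col17a1, and Col7a1, at 126 and 146 FPKM, are products of the epidermis, whereas the fibrillar chains come from fibroblasts. Among 11 matrix metalloproteinases, ADAMTS proteases and their inhibitors, 6 were lower and 0 higher (median -1.01, and -0.83 for the 5 with 10 FPKM in both). Mmp11, a stromal protease, was at 47.3 and 1.61 FPKM, Mmp3, whose promoter is shown above, at 19.7 and 5.40, and Timp2 at 87.3 and 31.1. As Mmp11 and Mmp3 reached 10 FPKM in wild type alone, the limit set part of this count. The part of the lower fibroblast markers in the lower matrix genes was not tested.

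Skeletal muscle genes, which in back skin belong to the panniculus carnosus below the fat, summed to 637 FPKM in wild type against 176 in JunB cKO over the 39 genes of the list in the table. Of these, 10 were members, 8 were at least 2-fold lower, and the median was -2.53. As 7 of the 10 passed the limit through wild type alone, count and median are set in part by the limit, and the 3 with at least 10 FPKM in both genotypes had a median of -0.79. Mylpf, a myosin light chain, was at 118 FPKM in wild type against 11.3 in JunB cKO, Tnni2, a troponin, at 76.6 and 5.58, and Ckm, the muscle creatine kinase, at 21.7 and 2.15. Myl1 was at 40.0 in wild type but listed at 0 in JunB cKO. Tpm2, which smooth muscle also expresses, was at 173 and 99.3. In adipocyte genes, 7 of 15 members were lower and 0 higher (median -0.99, and -1.57 for the 8 with 10 FPKM in both). Cd36, a fatty acid transporter, was at 216 and 32.8 FPKM, Fabp4 at 125 and 27.4 and Lpl at 42.4 and 11.6, but Adipoq, the adipokine that defines fat cells, was at 8.76 and 17.4. Of 21 macrophage and dendritic cell genes, 13 were lower and 1 was higher (median -1.18, and -0.94 for the 9 with 10 FPKM in both). Cd68 was at 34.9 and 6.23 FPKM, Lyz2 at 136 and 51.5, Mrc1 at 25.3 and 5.70 and C1qa at 21.04 and 8.70. Cd68, Mrc1 and C1qa reached 10 FPKM in wild type alone, and the higher member, Clec4n (0 and 12.9), in JunB cKO alone. The counts of the adipocyte and the macrophage and dendritic cell lists are thus set in part by the limit. The antigen presentation gene H2-Ab1 (250 and 206 FPKM) and Cd207, the langerin gene of epidermal Langerhans cells (8.40 and 15.8), did not follow. Of 7 endothelial members, 3 were lower and 1 higher (median -0.51, and -0.38 for the 3 with 10 FPKM in both), and Pecam1 was at 29.5 and 29.6. The higher one was Notch4, which is counted again with the Notch pathway below. Thus not every gene of the tissue below the epidermis was lower, and whether the biopsies differed in depth was not tested.

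Lipid genes of the sebaceous gland were lower in 7 and higher in 0 of 26 members (median -0.67), and 23 of 26 had a ratio below 0. Fabp5, a fatty acid binding protein of sebocytes and epidermis, was at 461 FPKM in wild type against 75.9 in JunB cKO (log2 ratio -2.59). Elovl6, an elongase, was at 470 and 184, Far2, which makes fatty alcohols for waxes, at 210 and 97.6, and Pparg, the receptor that directs sebocyte and fat cell differentiation, at 34.8 and 15.7. The desaturase Scd1 was at 826 and 592 and the sebocyte-specific Scd3 at 43.3 and 39.8. Of 21 genes of cholesterol synthesis, 4 were lower and 2 higher (median -0.46). Ebp, a sterol isomerase, was at 72.8 and 19.8 FPKM, whereas Dhcr7 was at 20.6 and 91.3 and Srebf2, which activates the pathway, at 8.66 and 23.0. Of 23 ceramide genes of the barrier, 0 were higher and 1 was lower (median -0.18).

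Among signaling pathways, the counts in both directions were close to each other. Of 17 Notch pathway members, 3 were higher and 2 lower, and the median was 0.01. The higher ones were the ligand Dll1, at 6.34 FPKM in wild type against 33.0 in JunB cKO, the target Heyl, at 2.36 and 11.2, and the receptor Notch4, at 0.261 and 11.8, whose promoter window holds the motif printed above. Lower were Rbpj, the DNA-binding partner of the Notch intracellular domain, at 23.2 and 8.77, and Nrarp, a feedback inhibitor, at 42.7 and 17.6. All 3 higher ones reached 10 FPKM in JunB cKO alone, and Rbpj did so in wild type alone, so that the limit set these directions. The 12 members with at least 10 FPKM in both genotypes had a median of -0.13. Of 19 Wnt ligands, receptors and inhibitors, 4 were higher and 3 lower (median 0.10), with the inhibitor Sfrp1 at 14.0 and 39.1 and the inhibitor Dkk2 at 31.0 and 12.1. In the EGF receptor family, 2 of 13 were higher and 2 lower (median 0.10). Erbb2 was at 15.7 and 58.9 FPKM and Egfr at 66.5 and 105, and the ligand Nrg4 at 34.3 and 3.96. Of 18 TGF-beta and BMP genes, 1 was higher and 0 lower (median -0.28). Desmosome and junction genes were higher in 1 and lower in 1 of 26 members (median -0.05), and epidermal transcription factors in 1 and 1 of 23 (median 0.11), with Trp63 at 176 and 187 FPKM.

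By rule, the 5 largest and 5 smallest ratios were taken in each of 3 tiers of level, without predicted genes, small RNAs, ribosomal proteins and receptor segments. At 10 to 30 FPKM the highest were Krtap19-4, Krt72, Sema5b, the pseudogene Mipep-ps and Krtap4-6, all listed at 0 in wild type. The lowest were Adig, Clec4a3, Gpx2, Nr2f1 and Defb8, all listed at 0 in JunB cKO and at 22.0 to 18.1 FPKM in wild type. At 30 to 100 FPKM the highest were Stfa1, Krtap19-9a, Krtap19-3, Pgls and Ufc1. Ufc1 and Pgls, enzymes of protein modification and of the pentose phosphate pathway, are used in every cell, and both have a second row. With both rows summed, Ufc1 was at 15.9 FPKM in wild type against 45.0 in JunB cKO. The lowest were Npy, Myl1, Apol6, Defb47 and Syt8. Npy, a neuropeptide gene, was at 63.8 FPKM in wild type, or about 381 reads, and listed at 0 in JunB cKO, and Syt8 at 74.9 and 1.16. Above 100 FPKM the highest were Svbp, Snhg7, S100a8, S100a9 and Mrps18c, the last at 3.09 and 148 FPKM. The lowest were Trim12c (309 and 6.97), Bahcc1 (134 and 3.61), Ppp1r10 (1045 and 51.6), Mylpf and the ferritin light chain gene Ftl1 (339 and 39.9). For Trim12c, Bahcc1, Ppp1r10, Mrps18c and Svbp, the wound table showed log2 ratios between -0.18 and 0.00.

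**Figure D4:**
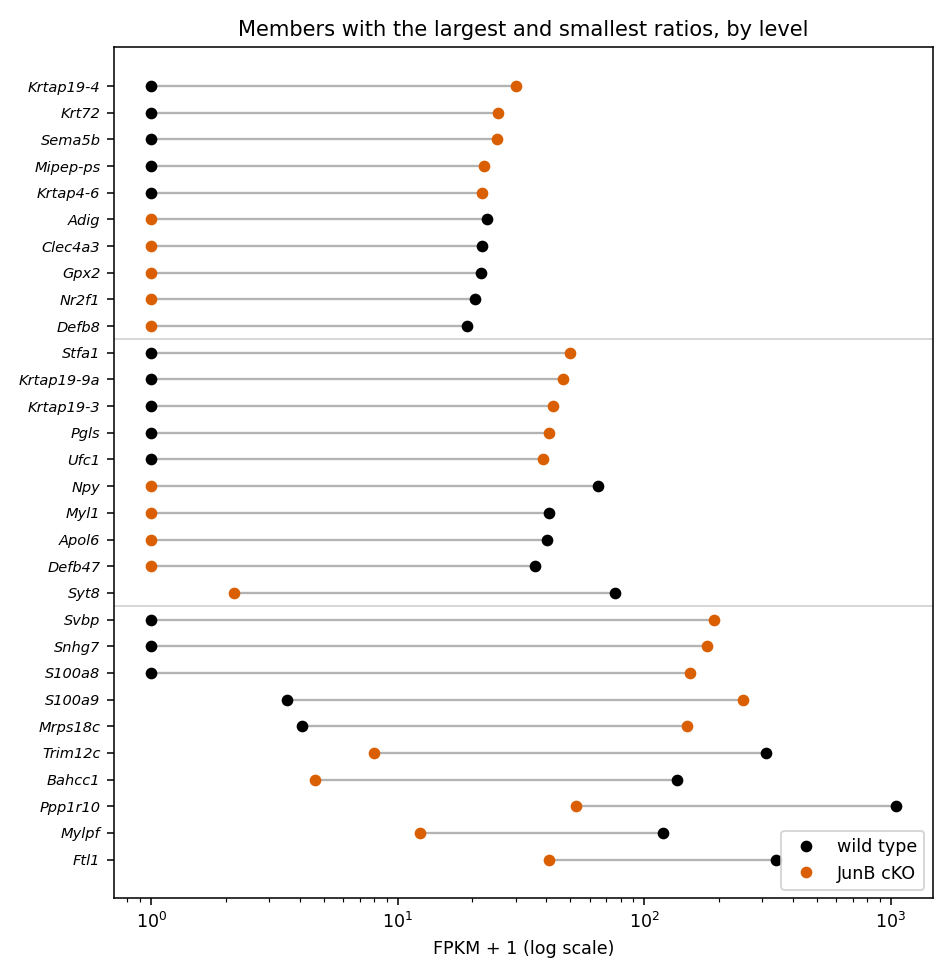
FPKM + 1 (log scale) in wild type (black) and JunB cKO (orange) for the 30 members with the largest and smallest ratios in 3 tiers of level, from 10 to 30 FPKM (top) to over 100 FPKM (bottom). Most pairs have one genotype at 1, that is, listed at an FPKM of 0.

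In the other comparisons, most of these lists were placed differently. Over the 7239 genes with at least 10 FPKM in both the plucking and the wound table, 1490 were past 2-fold after plucking and 277 in wounds. The SD of the log2 ratio was 1.24 after plucking and 0.54 in wounds. By the labels, the wounds had 2 libraries per genotype and plucking 1, so these counts and spreads were not obtained at equal replication. The part of this in the wider spread after plucking was not tested. Of the 726 that were higher after plucking, 56 were also higher and 45 lower in wounds, and of the 764 lower, 28 were also lower and 45 higher. Pearson's r of the log2 ratios across these genes, which are not independent replicates, was -0.04. Against unperturbed keratinocytes, it was -0.02 over 4997 genes. List medians are over the genes that passed the limit in the condition concerned, so the genes differ between conditions. Keratin-associated proteins had a median of -0.55 in wounds, where 12 of 47 were lower, and inner root sheath genes of -0.59. Dermal fibroblast and macrophage genes were at 0.02 and 0.01, skeletal muscle at 0.12, adipocyte genes at 0.62 and sebaceous lipid genes at 0.35. The unperturbed pair, where the median over all genes was -0.23, gave -0.80 for sebaceous lipid genes, so that these were lower in both conditions without a wound. Follicle markers were far higher in wounds. Krt71, for example, was at 1623 FPKM in wild type wounds and 1197 in JunB cKO wounds, and at 13.4 and 7.52 in unperturbed keratinocytes. The JunB cKO library after plucking thus held more inner root sheath transcript than the unperturbed pair and less than the wounds. The loci of the 3 tables were assembled separately, and levels across tables are given as a description.

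**Figure D5:**
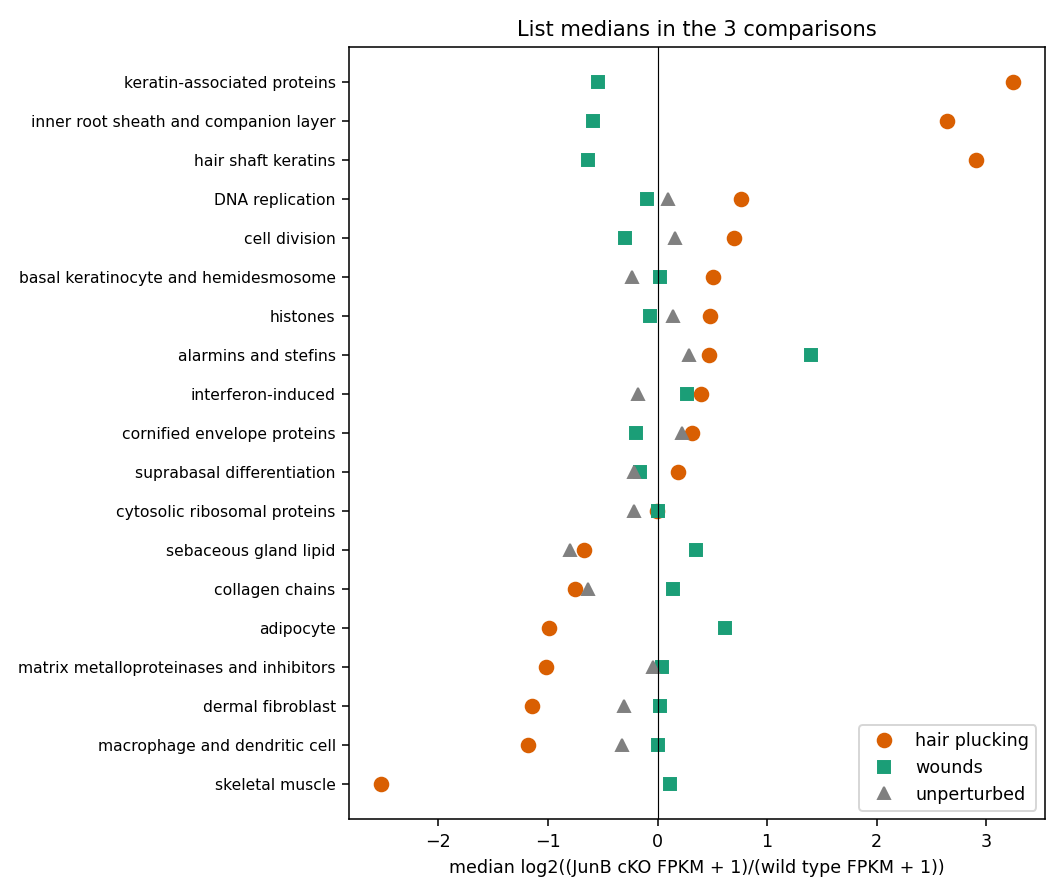
Median log2 ratio of JunB cKO to wild type for 19 gene lists after hair plucking (circles), in wounds (squares) and in unperturbed keratinocytes (triangles), shown where a list had at least 5 members in that table. Hair genes are highest and skeletal muscle genes lowest after plucking, whereas in wounds keratin-associated proteins are at -0.55 and skeletal muscle at 0.12.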

How the data were processed

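Per the study's methods, pooled total RNA was depleted of rRNA, prepared as stranded libraries and sequenced as single reads of 75 bases. The authors mapped the reads to GRCm38 with TopHat or HISAT2 and derived FPKM values per locus with Cufflinks and Cuffdiff. The deposited tables also hold the authors' fold changes, test statistics, p-values and q-values, which were not used. Genotypes follow the sample names that each table carries (Co and Mut), and conditions follow the table names.

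The members and gene lists were chosen with earlier results of these data known. Log2 ratios used a pseudocount of 1 FPKM and a limit of 2-fold, and 1 library per genotype allowed no test. Genes were named as extremes or highest-expressed members of a list, or by the tier rule; others were chosen after their values were seen. Coordinates are 1-based, from GENCODE M21 (GRCm38), which matched 8355 of 8553 members. Depth was estimated from single-transcript genes of at least 600 bases, and intervals are exact binomial. Pseudocounts, minimum levels, scaling, loci and the fold limit were varied. The calculations were tested on simulated data. Python 3.11.15, pandas 2.3.3, numpy 2.4.6 and scipy 1.17.1 were used, with plots by matplotlib 3.10.9.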

Additional observations from a re-analysis of the deposited data

Results flagged for a closer look

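Several gene lists lay on opposite sides of 0 after hair plucking and in wounds. The difference between the 2 conditions was not tested, as each table gives 1 value per genotype. The median log2 ratio of JunB cKO to wild type was 2.91 after plucking and -0.64 in wounds for hair shaft keratins, 2.64 and -0.59 for the inner root sheath, and 3.25 and -0.55 for keratin-associated proteins. The values after plucking are set in part by the limit of 10 FPKM, which 0 of 6 hair shaft keratins, 4 of 11 inner root sheath genes and 4 of 24 keratin-associated proteins reached in both genotypes. The median was -0.67 after plucking and 0.35 in wounds for sebaceous gland lipid genes, -0.99 and 0.62 for adipocyte genes, and -0.51 and 0.45 for endothelial genes. After plucking, 8 of 15 adipocyte and 3 of 7 endothelial genes reached 10 FPKM in both genotypes. Each median is over the genes that passed the limit in that condition, so the genes differ. Adipocyte genes numbered 15 after plucking and 21 in wounds, and endothelial genes 7 and 9. Among the single genes named by the tier rule, Snhg7, a host gene of small nucleolar RNAs, was listed at 0 in wild type but at 178 FPKM in JunB cKO after plucking, for which no fold is given, and was lower in JunB cKO in wounds, at 117 and 48.3 FPKM (log2 ratio -1.26).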

How the results depend on the processing

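No paired analysis was possible because each genotype is represented by 1 pooled library, and for the same reason no library could be left out. The counts of 1118 higher and 1051 lower members depended on the minimum level. With a minimum of 1 FPKM there were 2957 and 2588 (median log2 ratio 0.025), and with 30 FPKM 452 and 469. At a 1.5-fold limit there were 1954 and 1884. With at least 10 FPKM in both genotypes, an alternative chosen after seeing the data like the next 2, there were 344 and 410. Without members listed at 0 and without transcripts under 300 bases, the counts were 911 and 928, and 989 and 979. Scaling to equal sums of protein-type genes moved the median to 0.034. The 30 named genes kept their direction and a ratio past 2-fold under every alternative that retained them, but 8 of 30 were left without members listed at 0, and 3 with 10 FPKM in both genotypes. Of the list medians, that of the neutrophil list (4 members, 2.90), which rests on S100a8 and S100a9, was -0.35 with a minimum of 1 FPKM, -0.35 without members listed at 0 and -0.38 with 10 FPKM in both genotypes. Medians of 14 other lists, which lay between -0.23 and 0.47, changed sign under at least 1 alternative. With 10 FPKM in both genotypes, those of alarmins and stefins, melanocyte, interleukin and TNF, and Notch genes became -0.01, -0.21, -0.11 and -0.13. In addition, 23 list values moved by at least 0.5 on the log2 scale, among them keratin-associated proteins (2.12 with 10 FPKM in both genotypes and 1.99 with a pseudocount of 5), skeletal muscle (-0.79 and -1.80), hair shaft keratins (1.75 to 4.996) and adipocyte genes (-1.57 with 10 FPKM in both). Values near 10 FPKM of short genes rest on few reads.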

Other observations

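Mitochondrially encoded transcripts and small RNAs differed as well. All 9 mitochondrially encoded members had a ratio above 0 (median 0.46), and 3 were past 2-fold, namely the rRNA genes mt-Rnr1 (705 FPKM in wild type against 1607 in JunB cKO) and mt-Rnr2 (1365 and 3181) and the tRNA gene mt-Tm (218 and 921). Among the protein-coding ones, mt-Co1 was at 4044 and 4549 FPKM and mt-Cytb at 1241 and 1706. Of 54 small noncoding RNA members, 20 were higher and 12 lower (median 0.31), and 9 were listed at 0 in wild type against 7 in JunB cKO. Their transcripts are shorter than most fragments, so that few reads give a large FPKM. Among the abundant ones, Rny1 was at 4429.5 and 12005 FPKM and Rn7sk at 63559 and 52063.

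In 21 oxidative stress and metallothionein members, 2 were higher and 4 lower (median -0.22). Srxn1, which repairs peroxiredoxins, was at 5.94 FPKM in wild type against 27.1 in JunB cKO, whereas Gclm, of glutathione synthesis, was at 77.6 and 14.8, and Mt4, a metallothionein of stratified epithelium, at 32.2 and 9.39. Of 17 serpins, 1 was higher and 3 were lower (median 0.06), with Serpinb8 at 194 and 85.2 FPKM. Kit, a receptor of melanocytes and mast cells, was at 1.92 and 18.7, while Dct, a melanocyte enzyme, was at 18.9 and 27.8 and Cpa3, a mast cell protease, at 14.5 and 18.9.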
